A study of Mus musculus with 24 samples.

Results

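The p53 target genes are 36 mouse genes listed by symbol, namely the transcription factor p53, its regulators and genes listed as its targets. How far each depends on p53 in these cells was not tested. All 36 were matched by symbol among the 47643 genes of the count files, and each had reads. The transcripts come from organoids, which are small clusters of epithelial cells that were raised in Matrigel from salivary gland stem/progenitor cells of C57BL/6 mice. Per the labels, these were obtained 14 or 90 days after irradiation (IR) of the animals' glands or after a sham treatment. Organoids of passage 1 and of passage 2 were sequenced. This gave 8 groups of 3 libraries, a sham and an IR group for each of day 14 passage 1, day 14 passage 2, day 90 passage 1 and day 90 passage 2. All 8 groups shared the strain and a medium with EGF, FGF2, insulin, dexamethasone and Y-27632. The sources used here give neither the radiation dose nor the age of the mice, and the cells had grown in culture since they left the gland. The question put to these genes was whether organoids of irradiated glands still carried a damage response.

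Ionising radiation breaks DNA, and the kinases that sense the breaks stabilise p53, which then binds its sites near target genes and raises their transcription. The targets halt the cell cycle, start cell death, help repair DNA and adjust metabolism, and Mdm2, itself a target, marks p53 for degradation and so closes a feedback loop. The salivary gland is known for a lasting loss of function after radiotherapy of the head and neck.

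Counts on genes ran from 1151608 to 3189466 per library, and 13402 to 15539 genes had at least 1 count. Levels are given as CPM, a gene's count scaled to a common library size, with TMM factors. Reads came from the 3' ends of transcripts, so a level does not grow with transcript length. Of the markers of epithelium, Epcam and Cdh1 were present in every library at 358 CPM or more. In no library did the fibroblast markers sum to more than 3.85 CPM, the endothelial ones to more than 2.05 CPM or the blood and immune ones to more than 8.17 CPM, and Col3a1 was at 0 in all 24. In such bulk samples, fewer cells of a type and less RNA per cell cannot be told apart.

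In the RefSeq promoters of build GRCm38.p6, which hold 250 bases before and 50 after a start, 29 of the 36 genes were found, with 39 promoters. The p53 half-site, searched by its consensus on both strands, was in 12 of these 39 (30.8%) and in 8.36% of all 32851 promoters in the table. The 12 belong to 11 of the 29 genes, since the 2 windows of Aen overlap and hold the same site. The members were listed as p53 targets, so this comparison is no test of the list. A pair of half-sites up to 13 bases apart, with at most 2 mismatches and the central bases of both half-sites intact, was in 3 of the 39 (7.69%) and in 2.12% of all promoters. A match in letters is a description of the window and is not a bound site. The 3 pairs and the half-site of Mdm2 are shown because these genes represent the feedback, arrest, death and metabolic arms described in the results. Each stretch is written 5′ to 3′ on the strand of its gene, with the half-sites in capitals. The Cdkn1a stretch is chr17:29090876-29090967 on the plus strand, with its pair starting 73 bases before the upstream of 2 starts in the table. The pair in capitals is the one with the fewest mismatches. In Cdkn1a, the 10 bases directly after the second half-site, left in lower case, also make a pair with that half-site within the limits above. Cdkn1a and Sesn1 each have another promoter in the table, which held no half-site. That of Sesn1 is chr10:41887223-41887305 on the plus strand, that of Bax is chr7:45467049-45467129 on the minus strand, and that of Mdm2 is chr10:117710905-117710974 on the minus strand.
Cdkn1a: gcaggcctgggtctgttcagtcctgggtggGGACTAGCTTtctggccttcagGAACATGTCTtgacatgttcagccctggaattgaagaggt
Sesn1: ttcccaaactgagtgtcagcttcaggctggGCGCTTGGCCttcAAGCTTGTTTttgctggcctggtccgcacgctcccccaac
Bax: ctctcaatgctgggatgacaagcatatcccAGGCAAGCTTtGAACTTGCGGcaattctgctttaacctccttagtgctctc
Mdm2: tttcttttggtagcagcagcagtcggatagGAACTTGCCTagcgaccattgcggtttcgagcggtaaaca

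Over the 24 libraries, Cdkn1a had the highest mean at 339 CPM, followed by Btg2 (246 CPM), Trp53inp1 (222 CPM), Ccng1 (199 CPM), Zmat3 (184 CPM), Mdm4 (127 CPM) and Mdm2 (102 CPM). The ranges over libraries of these 7 genes overlapped with those of their neighbours in this order. A further 24 members had means between 10 and 100 CPM, and 5 lay under 10 CPM. The 2 lowest, Pidd1, an adaptor of the caspase-2 complex, and Cd80, a costimulatory ligand of T cells, had means of 1.30 and 0.978 CPM from 65 and 53 reads in all. They fell under the filter on low counts, so 34 of the 36 members were tested with edgeR's quasi-likelihood test, Benjamini-Hochberg adjusted over the 10563 genes that passed it. Ddb2 shares its locus with Acp2 on the other strand, and since the strand setting of the counting is not given, its value of 6.22 CPM is uncertain. Acp2 held 1100 reads in all and Ddb2 327. Other members overlap annotated genes too. Those in the count files held up to 64 reads in all, beside Gadd45a with 1099.

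**Figure D1:**
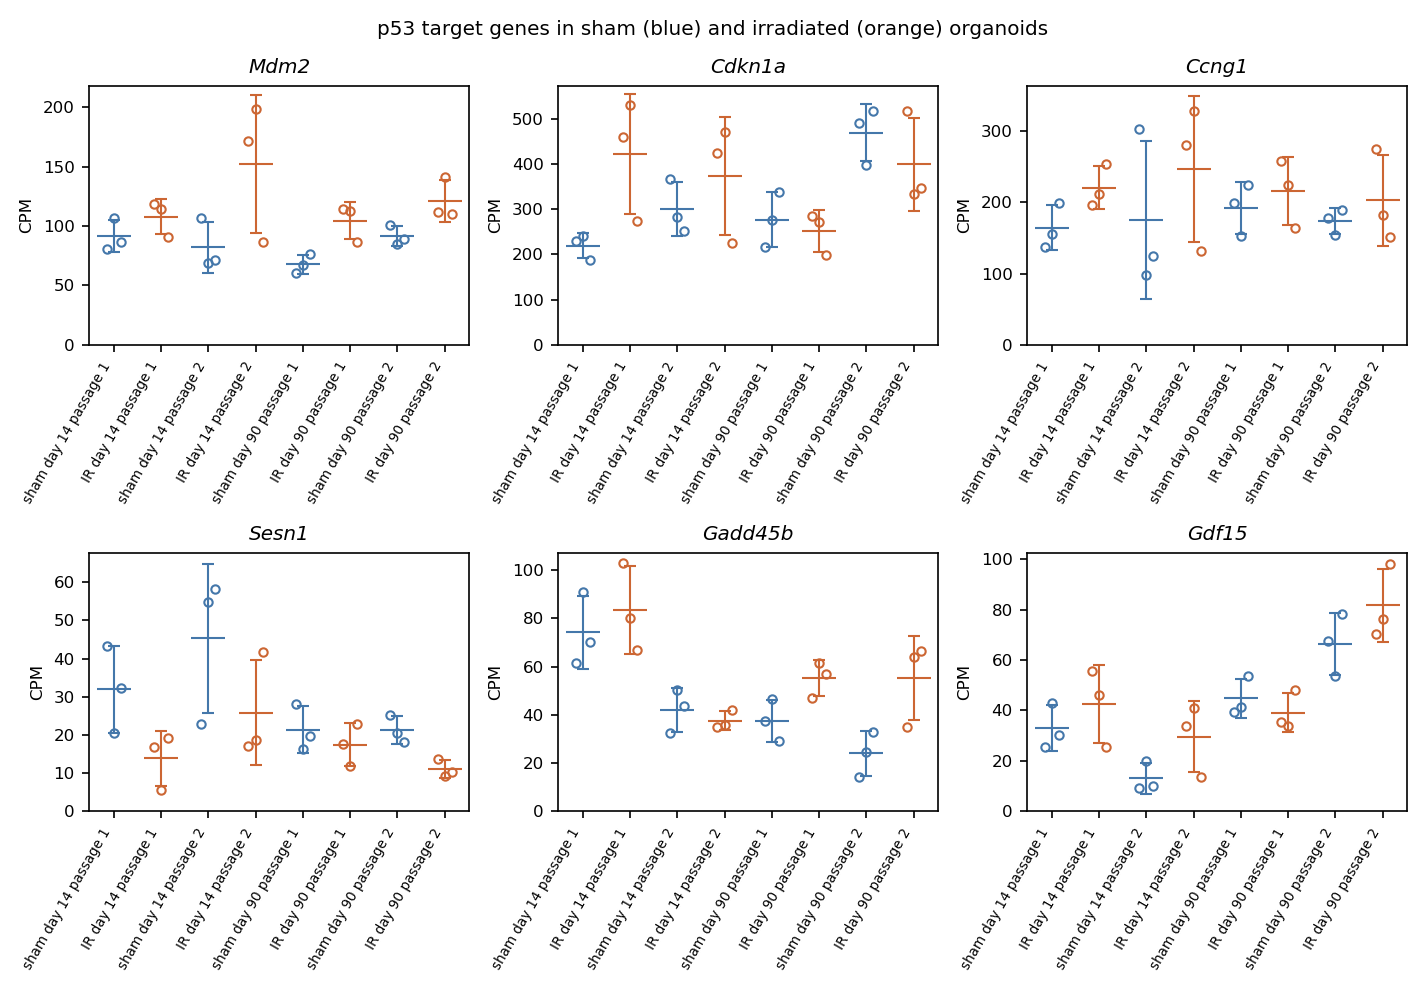
CPM of 6 p53 target genes (vertical axes, from 0) in the 8 groups (horizontal axes), with blue for sham and orange for IR, open circles for the 3 libraries and a bar for the mean with its SD. The mean of Mdm2 is higher and that of Sesn1 lower in IR than in sham in each pair of groups, while the Cdkn1a mean is higher in IR at day 14 and lower at day 90.

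Averaged over the 4 combinations of day and passage, 3 of the 34 tested members passed an adjusted p of 0.05 for IR against sham. Mdm2 and Gadd45b rose and Sesn1 fell. Of all tested genes, 11.0% were called in this comparison, against 3 of 34 here. The log2 fold change was above 0 for 26 of the 34 members and for 50.6% of all tested genes, with medians of 0.076 and 0.0033. An unadjusted p under 0.05 was reached by 4 members upward and 1 downward, where 25.9% of all tested genes reached it. For 33 of the 34 members the 95% interval of the mean log2 fold change lay between -1 and 1, with a median SE of 0.137. Passage 2 was grown from passage 1, so the 24 libraries are not fully independent in this average.

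Mdm2, the ubiquitin ligase that holds p53 in check, had the smallest p of the members. At day 14 its sham libraries of passage 1 held 81.0, 106 and 86.2 CPM, and its IR libraries 119, 114 and 91.0 CPM. In passage 2 of day 14, Mdm2 was at 107, 68.5 and 71.1 CPM in sham and at 171, 198 and 86.5 CPM in IR. In both of these strata the third IR library lay within the sham range. Day 90 gave Mdm2 levels in passage 1 of 60.4, 67.2 and 76.3 CPM in sham and of 114, 113 and 86.3 CPM in IR, without overlap. The Mdm2 values of day 90, passage 2, were 101, 84.5 and 89.0 CPM in sham and 112, 142 and 110 CPM in IR, also without overlap. The 4 log2 fold changes of Mdm2 were 0.24, 0.88, 0.62 and 0.41, in the order day 14 passage 1, day 14 passage 2, day 90 passage 1, day 90 passage 2. The second of these was called without IR replicate 3 (1.17, adjusted p = 0.00433) and with no filter on low counts (0.87, adjusted p = 0.00455). Without that filter, 200 of all genes were called in this stratum, against 2 with it. The mean of the 4 log2 fold changes of Mdm2 was 0.54 ± 0.12 (SE), with an adjusted p of 0.00525 by edgeR. With the interferon score of each library as a covariate, the Mdm2 mean was 0.39 and its adjusted p 0.0702. In the passage 1 libraries alone it was 0.43 (adjusted p = 0.0762), and in the passage 2 libraries alone 0.65 (adjusted p = 0.103).

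The other regulators of p53, and Trp53 itself, were not called for IR. Trp53 had group means of 34.4, 35.0, 38.6 and 29.2 CPM in sham and 29.0, 37.4, 43.4 and 35.0 CPM in IR, in the same order of strata, with SDs of 0.395 to 10.5 CPM (n = 3). Its mean log2 fold change was 0.06 ± 0.10 (SE), and sham and IR overlapped in each stratum. Mdm4, an Mdm2 relative that binds and inhibits p53, had sham means of 119, 122, 106 and 148 CPM and IR means of 99.8, 156, 116 and 148 CPM. Ppm1d, the phosphatase that ends the p53 signal, kept group means of 19.8 to 26.2 CPM and was not called in any of the 9 comparisons.

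Sesn1, a stress-induced inhibitor of mTORC1 signalling, was the 1 member with a log2 fold change below 0 in all 4 strata. It was at 43.2, 20.4 and 32.3 CPM in sham and at 16.8, 5.67 and 19.2 CPM in IR at day 14, passage 1. In passage 2 of the same day, Sesn1 was at 22.7, 54.9 and 58.1 CPM in sham and at 17.2, 18.6 and 41.6 CPM in IR. In the first of these strata the groups did not overlap, and in the second they did. At day 90, Sesn1 held 28.2, 16.2 and 19.7 CPM in sham and 17.5, 11.9 and 23 CPM in IR at passage 1, with overlap. At passage 2 it held 25.2, 20.4 and 18.0 CPM in sham and 13.7, 9.19 and 10.1 CPM in IR, with each IR library below each sham library. The mean log2 fold change of Sesn1 was -0.77 ± 0.20 (SE), with an adjusted p of 0.0168 by edgeR. With the interferon score as a covariate it was -0.62 (adjusted p = 0.0892), and with the share of counts on the ribosomal gene Gm42418 as one -0.71 (adjusted p = 0.0523). In the passage 1 libraries alone it was -0.68 (adjusted p = 0.181), and in those of passage 2 alone -0.85 (adjusted p = 0.131). Its paralogue Sesn2 had a mean log2 fold change of -0.09 and was not called.

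Gadd45b and Gadd45a encode stress proteins that act on cell cycle arrest, repair and MAP kinase signalling. Gadd45b overlapped between sham (61.4, 90.8, 70.3 CPM) and IR (103, 80.3, 67.0 CPM) at day 14, passage 1, and between 32.4, 50.2, 43.5 CPM and 35.0, 35.8, 42 CPM at passage 2. At day 90 each IR library was above each sham library, with Gadd45b at 37.2, 46.5 and 29.0 CPM in sham against 46.9, 61.5 and 57.1 CPM in IR at passage 1. In passage 2 of day 90, Gadd45b rose from 14.4, 24.6 and 33 CPM to 35.1, 63.9 and 66.5 CPM, or 1.20 ± 0.28 on the log2 scale (SE; adjusted p = 0.0132 by edgeR). That call was lost without sham replicate 1 (0.92, adjusted p = 0.0897), IR replicate 2 (1.07, adjusted p = 0.0862) or IR replicate 3 (1.04, adjusted p = 0.0923), with only these 2 groups in the fit (1.18, adjusted p = 0.152), and in a fit that adjusts for the share of Gm42418 (adjusted p = 0.0572). Over the 4 strata, the mean of Gadd45b was 0.44 ± 0.14 (SE; adjusted p = 0.0404). This second call was lost in 19 of 34 other settings, among them the removal of any 1 of 16 libraries, which came from all 8 groups (adjusted p = 0.0539 to 0.083), and each passage alone (0.36 and 0.53, adjusted p = 0.253 and 0.235). Gadd45a had log2 fold changes of 0.11, 0.51, 0.85 and 0.60, all above 0, from sham means of 28.8, 16, 14.6 and 14.1 CPM and IR means of 31.2, 22.4, 26.4 and 21.7 CPM, and a mean of 0.52 ± 0.19 (SE; adjusted p = 0.0846). Its IR group at day 90, passage 1, held 17, 19.2 and 43.1 CPM against 14.7, 16.9 and 12.2 CPM in sham, with the third IR library far above the other 2.

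**Figure D2:**
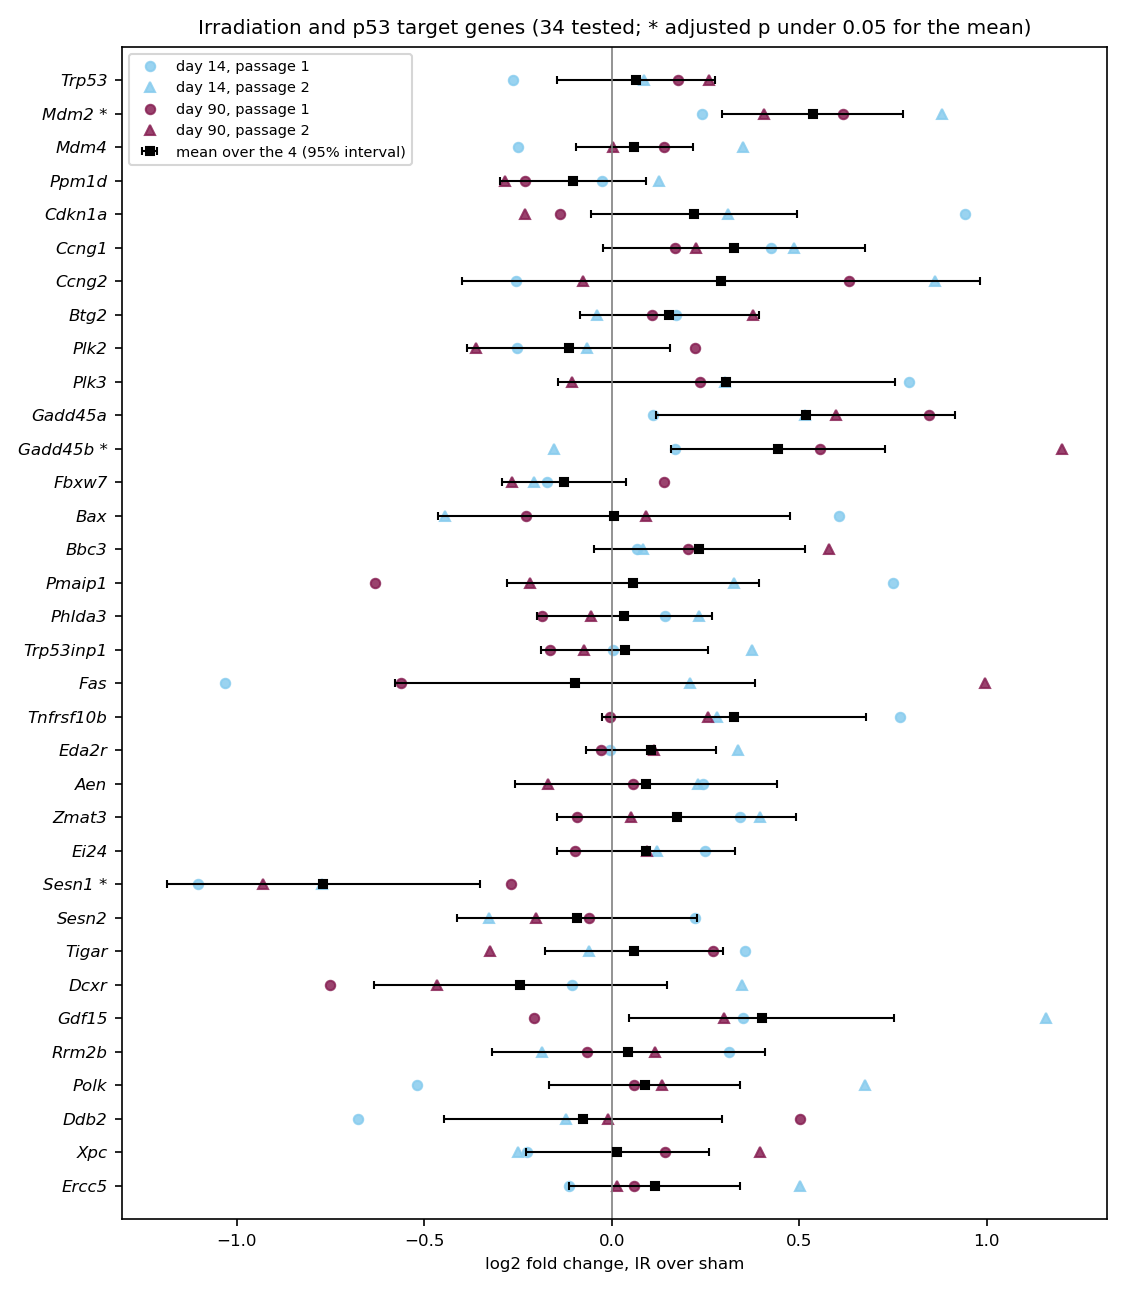
Log2 fold change of IR over sham (horizontal axis) for the 34 tested members (vertical axis), as circles and triangles for each day and passage and as black squares for the mean with its 95% interval. Mdm2 (0.54), Gadd45b (0.44) and Sesn1 (-0.77) carry an asterisk for an adjusted p under 0.05, and most other intervals cross 0.

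Within single strata, calls were few. At day 14, passage 1, none of the members was called against 0.341% of all tested genes, with 3 members at an unadjusted p under 0.05 upward and 2 downward, where 11.0% of all tested genes were under it. DESeq2 called 1 there, Cdkn1a. The CPM of sham and IR did not overlap for 6 members, with Cdkn1a and Zmat3 higher and Fas, Sesn1, Polk and Ddb2 lower in IR, while 17.2% of all tested genes did not overlap. In passage 2 of day 14, edgeR and DESeq2 called 0 members against 0.0189% of all tested genes by edgeR. An unadjusted p under 0.05 was reached by 5, all upward, against 6.73% of all tested genes. Each of the 34 overlapped between the groups, against 11.5% of all genes that did not. In passage 1 of day 90, both tools again called 0, against 0.0473% of all tested genes by edgeR, with 2 members at an unadjusted p under 0.05, both upward, against 12.7% of all tested genes. Mdm2, Gadd45a and Gadd45b were higher and Pmaip1 lower in IR without overlap there, 4 members where 19.5% of all genes did not overlap. In passage 2 of day 90, Gadd45b was the 1 member called, where 4.92% of all tested genes were called. There 3 members were at an unadjusted p under 0.05 upward and 1 downward, against 18.3% of all tested genes. In that stratum 8 members did not overlap, Mdm2, Gadd45b, Bbc3 and Fas higher and Plk2, Fbxw7, Sesn1 and Tigar lower, against 20.6% of all genes. The sign was the same and above 0 in all 4 strata for 4 members (11.8%), Mdm2, Ccng1, Gadd45a and Bbc3, against 15.5% of all tested genes, and below 0 in all 4 for Sesn1 alone (2.94%, against 14.6%).

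Among the genes of arrest and growth control, Cdkn1a encodes p21, the inhibitor of cyclin-dependent kinases and the classical readout of active p53. At day 14, passage 1, Cdkn1a was at 229, 240 and 188 CPM in sham and at 461, 531 and 273 CPM in IR, with no overlap. In passage 2 it was at 367, 284 and 252 CPM in sham and at 425, 472 and 224 CPM in IR, with overlap. The first of these differences came to 0.94 ± 0.27 on the log2 scale (SE), and its adjusted p was 0.145 by edgeR, 0.047 by DESeq2, 0.000139 with no filter on low counts and 0.029 without IR replicate 3. Of all genes, 460 were called there with no filter and 123 by DESeq2, against 36 in the main fit. At day 90 the Cdkn1a values of sham and IR overlapped, at 216, 276 and 338 CPM against 285, 272 and 199 CPM in passage 1 and at 492, 399 and 519 CPM against 519, 334 and 346 CPM in passage 2. The Cdkn1a log2 fold changes were -0.14 and -0.23 at day 90, and the mean over all 4 strata was 0.22, with a 95% interval of -0.05 to 0.49.

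Ccng1, cyclin G1, which recruits a phosphatase to Mdm2, had sham means of 164, 176, 192 and 174 CPM and IR means of 221, 247, 216 and 203 CPM. Its mean log2 fold change of 0.33 ± 0.17 (SE; adjusted p = 0.229) was called without sham replicate 1 of day 14, passage 2 (0.49, adjusted p = 0.0257) and with no filter on low counts (0.32, adjusted p = 0.0194). That unfiltered fit called 1642 of all genes in the mean, against 1162 with the filter. Plk2, a polo-like kinase of the stress response, had sham means of 58.6, 100, 39.3 and 98.9 CPM and IR means of 49.8, 95.9, 45.9 and 77.1 CPM, a mean log2 fold change of -0.11. Btg2, an antiproliferative factor that recruits mRNA deadenylases, lay between 201 and 372 CPM in the group means and was not called in IR against sham. The cyclin homologue Ccng2, the kinase Plk3 and Fbxw7, the substrate receptor of a ubiquitin ligase for cyclin E and Myc, had mean log2 fold changes of 0.29, 0.31 and -0.13, none called.

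No member of the death group was called for IR. Of its 11 tested genes, 10 had a mean log2 fold change above 0, as did 50.6% of all tested genes, and the group median was 0.091. In other settings Pmaip1 was called at day 14, passage 1, with no filter on low counts (0.76, adjusted p = 0.0414) and Fas at day 90, passage 2, with the interferon score as a covariate (1.35, adjusted p = 0.0358). Of all genes, these settings called 460 and 585 in those strata, against 36 and 520 in the main fit. Bax, the pore-forming protein of the mitochondrial outer membrane, had sham means of 20.2, 23, 26.5 and 23.5 CPM and IR means of 30.7, 18.1, 22.5 and 24.7 CPM, a mean log2 fold change of 0.01 ± 0.22 (SE). Its day 14, passage 2 IR libraries spread widely, at 11.5, 38.5 and 4.34 CPM. Bbc3 (PUMA), which frees BAX from its inhibitors, had a mean log2 fold change of 0.23, and at day 90, passage 2, its IR libraries (63.4, 68.1 and 73.4 CPM) all lay above sham (53.6, 38.6 and 44.7 CPM; adjusted p = 0.249). Pmaip1 (NOXA), which targets MCL1, was at 35.8, 64.6 and 36.4 CPM in sham and 81.3, 100.1 and 51.6 CPM in IR at day 14, passage 1. For passage 1 of day 90 the order was the opposite, with Pmaip1 at 47.4, 40.5 and 43.2 CPM in sham and 35.1, 32.4 and 16 CPM in IR. These 2 differences were log2 fold changes of 0.75 (adjusted p = 0.40) and -0.63 (adjusted p = 0.445).

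Phlda3, which blocks AKT at the membrane, had sham means of 63.7, 72.6, 81.7 and 92.4 CPM and IR means of 70.9, 86.1, 71.5 and 88.7 CPM, a mean log2 fold change of 0.03 ± 0.11 (SE). Zmat3, an RNA-binding splicing regulator, had sham means of 145, 155, 183 and 211 CPM and IR means of 183, 205, 172 and 218 CPM, a mean log2 fold change of 0.17. Eda2r, a receptor of the TNF family, had sham means of 37.1, 37.0, 29.9 and 36.8 CPM and IR means of 36.7, 47.0, 29.3 and 39.7 CPM, a mean log2 fold change of 0.10. None of these 3 was called for IR. Trp53inp1, a cofactor of p53 and of autophagy, had sham means of 239, 232, 158 and 240 CPM and IR means of 239, 301, 142 and 228 CPM. Tnfrsf10b, the mouse TRAIL death receptor, had a mean log2 fold change of 0.33 with a 95% interval of -0.03 to 0.68. Aen, a nuclease of apoptosis, and Ei24, an endoplasmic reticulum membrane protein, both had a mean log2 fold change of 0.09.

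Fas, the receptor of FAS ligand, was not called for IR, and its groups lay apart in opposite orders in 2 strata. At day 14, passage 1, its sham libraries (10.1, 19.2 and 14.9 CPM) all lay above IR (5.77, 7.56 and 8.44 CPM). At day 90, passage 2, its IR libraries (7.44, 12.5 and 13.8 CPM) all lay above sham (3.89, 5.78 and 7.14 CPM). The log2 fold changes of Fas were -1.03, 0.21, -0.56 and 0.996, and the passage 2 effect exceeded that of passage 1 by 1.40 ± 0.46 (SE; adjusted p = 0.442 by edgeR, and 0.025 with no filter on low counts). For this difference 255 of all genes were called with no filter, against 2 with it.

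Gdf15, a secreted hormone of cell stress, had the highest log2 fold change of the members at day 14, passage 2, at 1.16 ± 0.38 (SE; adjusted p = 0.561), with 9.09, 20.1 and 9.90 CPM in sham and 33.8, 41.1 and 13.8 CPM in IR. Its mean over the strata was 0.40 ± 0.17 (SE; adjusted p = 0.134), called without IR replicate 3 of that stratum (0.49, adjusted p = 0.0297) and with no filter on low counts (0.39, adjusted p = 0.0221). The fit with no filter called 1642 of all genes in the mean, against 1162. Tigar, a phosphatase that slows glycolysis, and Dcxr, which reduces xylulose and dicarbonyls, had mean log2 fold changes of 0.06 and -0.24. Tigar had sham means of 14.1, 17.6, 14.1 and 21.1 CPM and IR means of 18, 17, 17.1 and 16.7 CPM. The 5 repair genes were not called for IR either. Polk, a polymerase that copies damaged DNA, had log2 fold changes of -0.52, 0.68, 0.06 and 0.13, from sham means of 28.2, 24.9, 28.8 and 34.6 CPM and IR means of 19.1, 39.7, 30.3 and 37.9 CPM. Xpc and Ddb2, which detect damage in nucleotide excision repair, Ercc5, the nuclease that cuts beside it, and Rrm2b, the ribonucleotide reductase subunit, had mean log2 fold changes between -0.08 and 0.11. Ercc5 had sham means of 69, 73.4, 60.3 and 76.7 CPM and IR means of 63.3, 104, 62.8 and 77.1 CPM.

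The libraries of day 14, passage 2 divided by their interferon genes in a way that crossed the treatment. The mean log2 CPM of the tested interferon response genes was 1.86 in sham replicate 1 and 2.29 and 2.69 in IR replicates 1 and 2. It was 5.83 and 5.64 in sham replicates 2 and 3 and 5.68 in IR replicate 3. The values of several members followed that division and crossed the treatment. Ccng1 was at 303, 98.6 and 125 CPM in sham and at 280, 328 and 132 CPM in IR, so that the 3 libraries with low interferon genes held the 3 high values. The same 3 libraries held the highest values of Zmat3 (207, 229 and 298 CPM, against 88 to 133 CPM in the others), Trp53inp1 (310, 315 and 376 CPM, against 187 to 213 CPM) and Ercc5 (94.9, 118 and 116 CPM, against 60.2 to 78.6 CPM). Mdm2 was at 107, 171 and 198 CPM in these 3 libraries and at 68.5 to 86.5 CPM in the others. Other members divided the opposite way. Sesn1 was at 22.7, 17.2 and 18.6 CPM in the libraries with low interferon genes and at 41.6 to 58.1 CPM in the others, and Plk2 at 59.1, 72.8 and 96.9 CPM against 108 to 134 CPM. Interferon scores also differed within other groups, at 3.23, 5.62 and 2.68 in sham of day 14, passage 1, and 2.21, 4.96 and 3.32 in sham of day 90, passage 1. In the first of these, replicate 2, with the high score, held the lowest Zmat3 (125 CPM) and Ercc5 (62.3 CPM) and the highest Plk2 (70.4 CPM). It also held the highest Mdm2 (106 CPM) and Trp53inp1 (244 CPM) and the lowest Sesn1 (20.4 CPM), the opposite order, with Ccng1 between. In the second, replicate 2, with the highest score, held the lowest Ccng1 (152 CPM) and Sesn1 (16.2 CPM). Its Zmat3, Ercc5, Mdm2, Trp53inp1 and Plk2 lay between. IR of day 90, passage 2, had scores of 3.40, 4.91 and 4.61. Its replicate 1 held the highest Ccng1 (275 CPM), Zmat3 (307 CPM), Trp53inp1 (269 CPM), Ercc5 (107 CPM) and Sesn1 (13.7 CPM). It also held the lowest Plk2 (61.3 CPM), with Mdm2 between. These genes were picked after their values were seen, and the part of the interferon state was not tested beyond its use as a covariate.

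**Figure D3:**
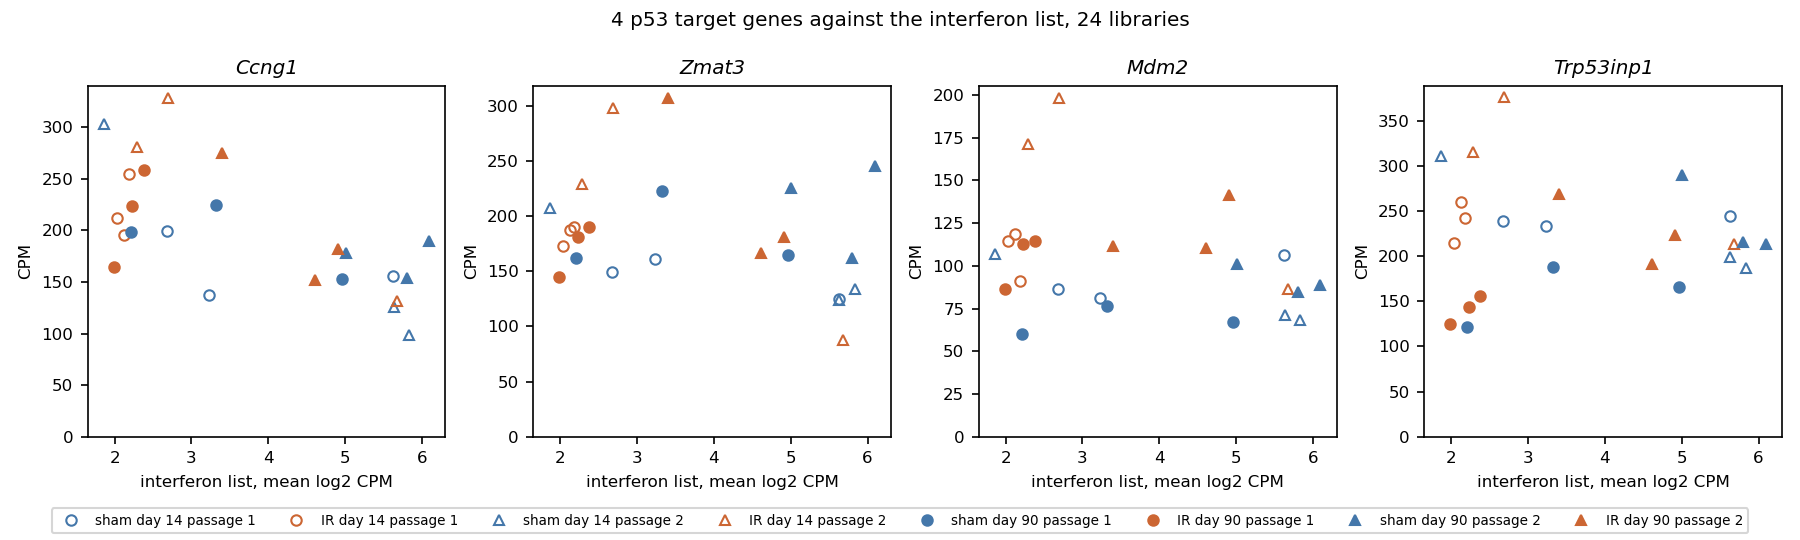
CPM of 4 p53 target genes (vertical axes, from 0) against the interferon score, a mean log2 CPM (horizontal axes) in the 24 libraries, with blue for sham, orange for IR, circles for passage 1, triangles for passage 2, open marks for day 14 and filled marks for day 90. The open triangles of day 14, passage 2, fall into a set with scores of 1.86 to 2.69 and a set with scores of 5.64 to 5.83, each with sham and IR libraries.

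Interferon genes also moved with treatment. Of the 29 tested, 18 fell in IR and none rose in the mean over the strata, where 11.0% of all tested genes were called. Their median log2 fold change was -1.90, and the 3 with the smallest p were Bst2 (-1.73), Isg15 (-2.47) and Rsad2 (-2.54). The markers of the duct layers moved too. Of the 3 basal duct markers, Trp63 and Krt5 fell (-0.98 and -0.78) and Krt14 did not pass (-0.50, adjusted p = 0.056). Of the epithelial and luminal ones, Krt8, Krt18 and Krt7 rose by 1.12, 0.95 and 0.98 on the log2 scale. Not called by edgeR were Krt19 (-1.33, adjusted p = 0.0574), Epcam (0.05, adjusted p = 0.702) and Cdh1 (-0.20, adjusted p = 0.121). Summed, the basal duct markers ran from 4349 to 7107 CPM in sham and from 1320 to 4729 CPM in IR at day 90, passage 2. At day 14, passage 1, they ran from 3516 to 5151 CPM in sham and 4459 to 6302 CPM in IR. Both pairs of ranges overlapped. IR lay below sham without overlap at day 14, passage 2 (4467 to 5854 against 7504 to 8811 CPM). The same held at day 90, passage 1 (1784 to 3854 against 4006 to 7382 CPM). The part of the duct markers in the values of the p53 targets was not tested.

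The IR effect on the members was compared between days and between passages. For the difference between days, 0 members were called by edgeR and by DESeq2, against 0.104% of all tested genes by edgeR, and an unadjusted p under 0.05 was reached by 2 upward and 3 downward, against 9.02% of all tested genes. The 3 smallest p belonged to Gadd45b, whose IR effect was 0.87 ± 0.28 higher at day 90 (SE; adjusted p = 0.258), Cdkn1a, whose effect was lower there (-0.81 ± 0.27, adjusted p = 0.278), and Pmaip1 (-0.96 ± 0.32, adjusted p = 0.29). With no filter on low counts these 3 were called, with adjusted p of 0.0215, 0.00331 and 0.00235, where 283 of all genes were called, against 11 with the filter. For the difference between passages, 0 members were called by both tools, against 0.0189% of all genes by edgeR, with 2 upward and 1 downward at an unadjusted p under 0.05, where 5.98% of all tested genes were under it. The smallest p were those of Fas, Polk (0.63 ± 0.25, adjusted p = 0.606) and Tigar (-0.50 ± 0.23, adjusted p = 0.785).

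More members were called for passage than for IR. Averaged over day and treatment, 8 of the 34 members rose and 1 fell from passage 1 to passage 2, where 11.7% of all tested genes were called. The median log2 change was 0.19 over the members and -0.0015 over all tested genes. Plk2 had the largest change of those called. In sham it went from 62.8, 70.4 and 42.6 CPM at passage 1 to 59.1, 108 and 134 CPM at passage 2 on day 14, and from 37.2, 38.4 and 42.4 CPM to 102, 93.9 and 101 CPM on day 90. In IR, Plk2 went from 51.9, 63.3 and 34.2 CPM to 72.8, 96.9 and 118 CPM on day 14, and from 50.01, 50.9 and 36.9 CPM to 61.3, 86.1 and 84.0 CPM on day 90. The passages overlapped in the first of these 4 pairs and not in the other 3. The mean log2 change of Plk2 was 0.96 ± 0.13 (SE), with an adjusted p of 5.92e-05 by edgeR.

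Mdm4 rose by 0.37 ± 0.07 (SE; adjusted p = 0.00214), with the passage 2 mean above that of passage 1 in all 4 pairs of groups. Pmaip1 rose by 0.61 ± 0.16 (SE; adjusted p = 0.0174), from group means of 45.6, 77.7, 43.7 and 27.8 CPM at passage 1 to 61.7, 78.1, 74.9 and 64.7 CPM at passage 2, in the order sham day 14, IR day 14, sham day 90, IR day 90. Dcxr rose by 0.66 ± 0.19 (SE; adjusted p = 0.0265), from 41.6, 38.5, 55.3 and 32.6 CPM to 62.3, 80.2, 71.7 and 51.4 CPM. These genes differ in role, an inhibitor of p53, a death protein and a metabolic enzyme. Trp53inp1 rose by 0.39 (adjusted p = 0.0207), Cdkn1a by 0.43 (adjusted p = 0.0391), Ercc5 by 0.36 (adjusted p = 0.0374) and Eda2r by 0.27 (adjusted p = 0.0393). Gadd45b was the member that fell, by 0.65 ± 0.14 (SE; adjusted p = 0.00332), from 74.2, 83.4, 37.6 and 55.1 CPM to 42, 37.6, 24 and 55.2 CPM in the same order, the last pair not differing in mean by more than its SDs of 7.46 and 17.4 CPM. The calls of Plk2, Mdm4, Trp53inp1 and Gadd45b held in all 32 other settings. Pmaip1 lost its call with the interferon score as a covariate (0.63, adjusted p = 0.0622), and that of Dcxr without IR replicate 1 of day 14, passage 1 (0.60, adjusted p = 0.0532), IR replicate 2 of day 14, passage 2 (0.54, adjusted p = 0.054) or IR replicate 1 of day 90, passage 2 (0.55, adjusted p = 0.0532). Ercc5, Cdkn1a and Eda2r lost theirs without any 1 of 13, 11 and 13 libraries, which came in each case from all 8 groups, with adjusted p up to 0.0695, 0.0759 and 0.0738. In a fit that adjusts for Gm42418, these 3 and Dcxr were not called (adjusted p = 0.0586 to 0.0831), nor was Eda2r with no filter on low counts (adjusted p = 0.152). Interferon genes moved with passage in the same libraries, with 24 of 29 tested higher and none lower at passage 2. Of all tested genes, 11.7% were called for passage. The part of the interferon genes in the changes of the members was not tested beyond the interferon covariate.

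**Figure D4:**
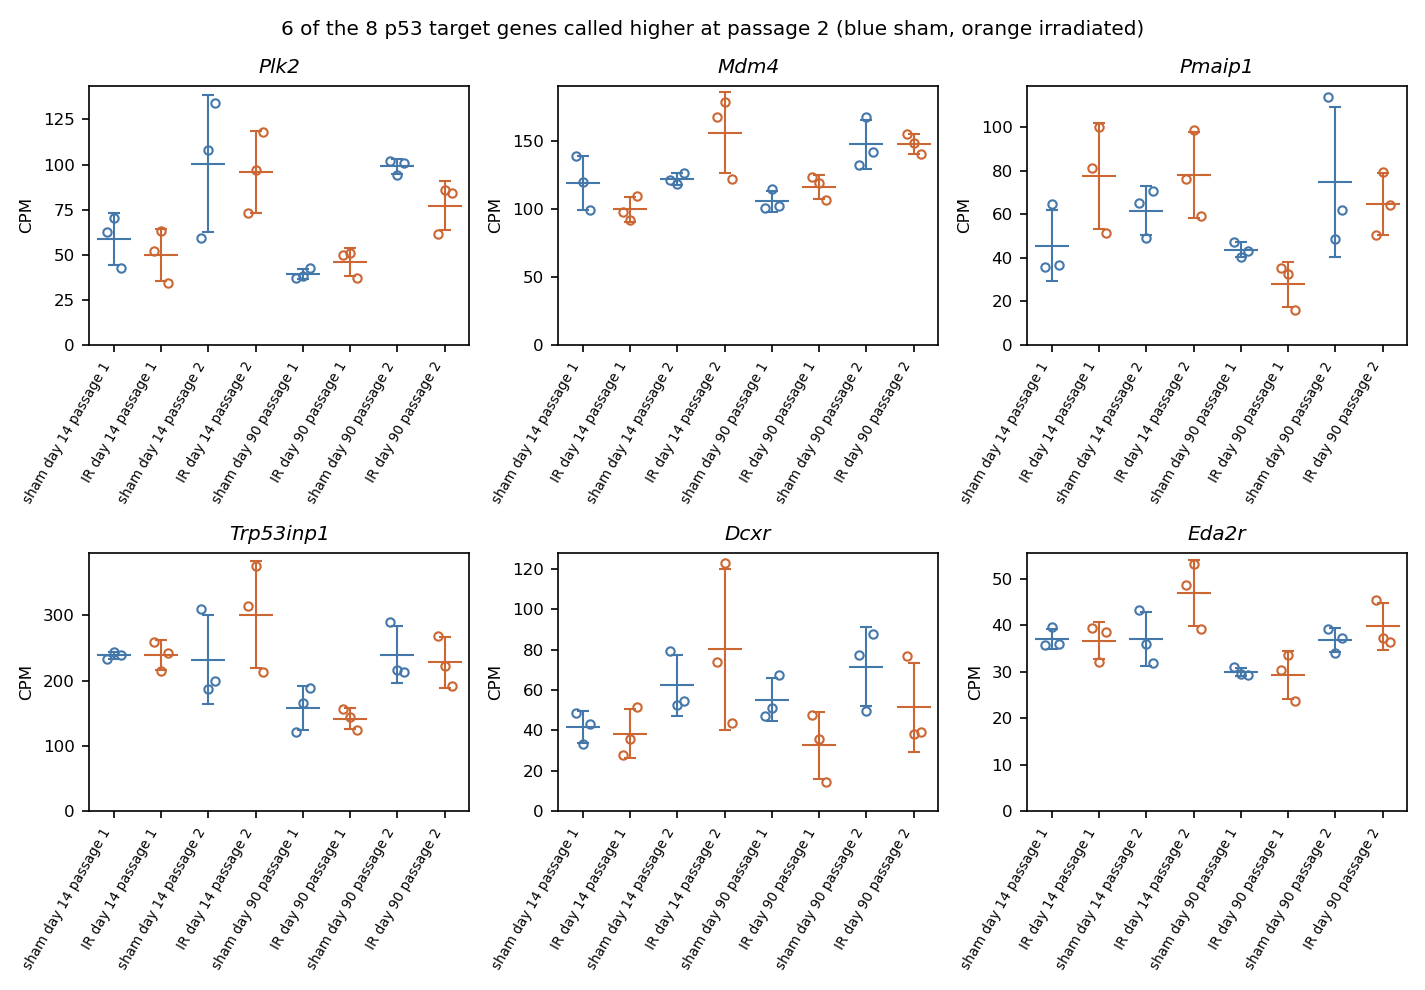
CPM of 6 of the 8 members called higher at passage 2 (vertical axes, from 0) in the 8 groups (horizontal axes), with blue for sham and orange for IR, circles for the 3 libraries and a bar for the mean with its SD. Plk2 sits at 34.2 to 70.4 CPM in the passage 1 libraries and at 59.1 to 134 CPM in those of passage 2.

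Some of the genes that p53 and p21 repress through the DREAM complex, which are mostly genes of cell division, fell with passage. Of 20 tested, 7 fell, 13 were not called and none rose, where 11.7% of all tested genes were called for passage, with a median log2 change of -0.66, among them Foxm1 (-0.90), Cdk1 (-0.70) and Ccnb1 (-0.82). In IR against sham, averaged over the strata, none of the 20 was called by edgeR, with 0 at an unadjusted p under 0.05 and a median of -0.099. Of all tested genes, 11.0% were called in that comparison and 25.9% were under an unadjusted p of 0.05.

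Between the days, 3 members differed, with Gdf15 higher and Fas and Trp53inp1 lower at day 90. Of all tested genes, 4.81% were called in this comparison. The day may go with the age of the animals and the date of culture, which cannot be told apart from it here. Gdf15 rose by 1.05 ± 0.17 (SE) on the log2 scale, with an adjusted p of 0.00149. In passage 2 the sham libraries of Gdf15 went from 9.09, 20.1 and 9.90 CPM at day 14 to 67.4, 53.5 and 78.1 CPM at day 90, and the IR libraries from 33.8, 41.1 and 13.8 CPM to 70.5, 76.5 and 98.1 CPM, neither with overlap. In passage 1 the Gdf15 group means were 33 and 44.7 CPM in sham and 42.5 and 39.1 CPM in IR. Its change was 0.16 (adjusted p = 0.902) in the passage 1 libraries alone and 1.93 in those of passage 2. Fas fell by 1.0 ± 0.23 (SE; adjusted p = 0.0156), from group means of 14.7, 14.5, 7.26 and 16.5 CPM at day 14 to 5.98, 5.60, 4.37 and 11.3 CPM at day 90, in the order sham passage 1, sham passage 2, IR passage 1, IR passage 2. Trp53inp1 fell by 0.42 (adjusted p = 0.0265), with -0.18 (adjusted p = 0.616) in the passage 2 libraries alone and -0.44 (adjusted p = 0.0794) in the fit that adjusts for Gm42418. In the passage 1 libraries alone, Fas was at -1.02 (adjusted p = 0.357), and in those of passage 2 at -0.99 (adjusted p = 0.0846).

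**Figure D5:**
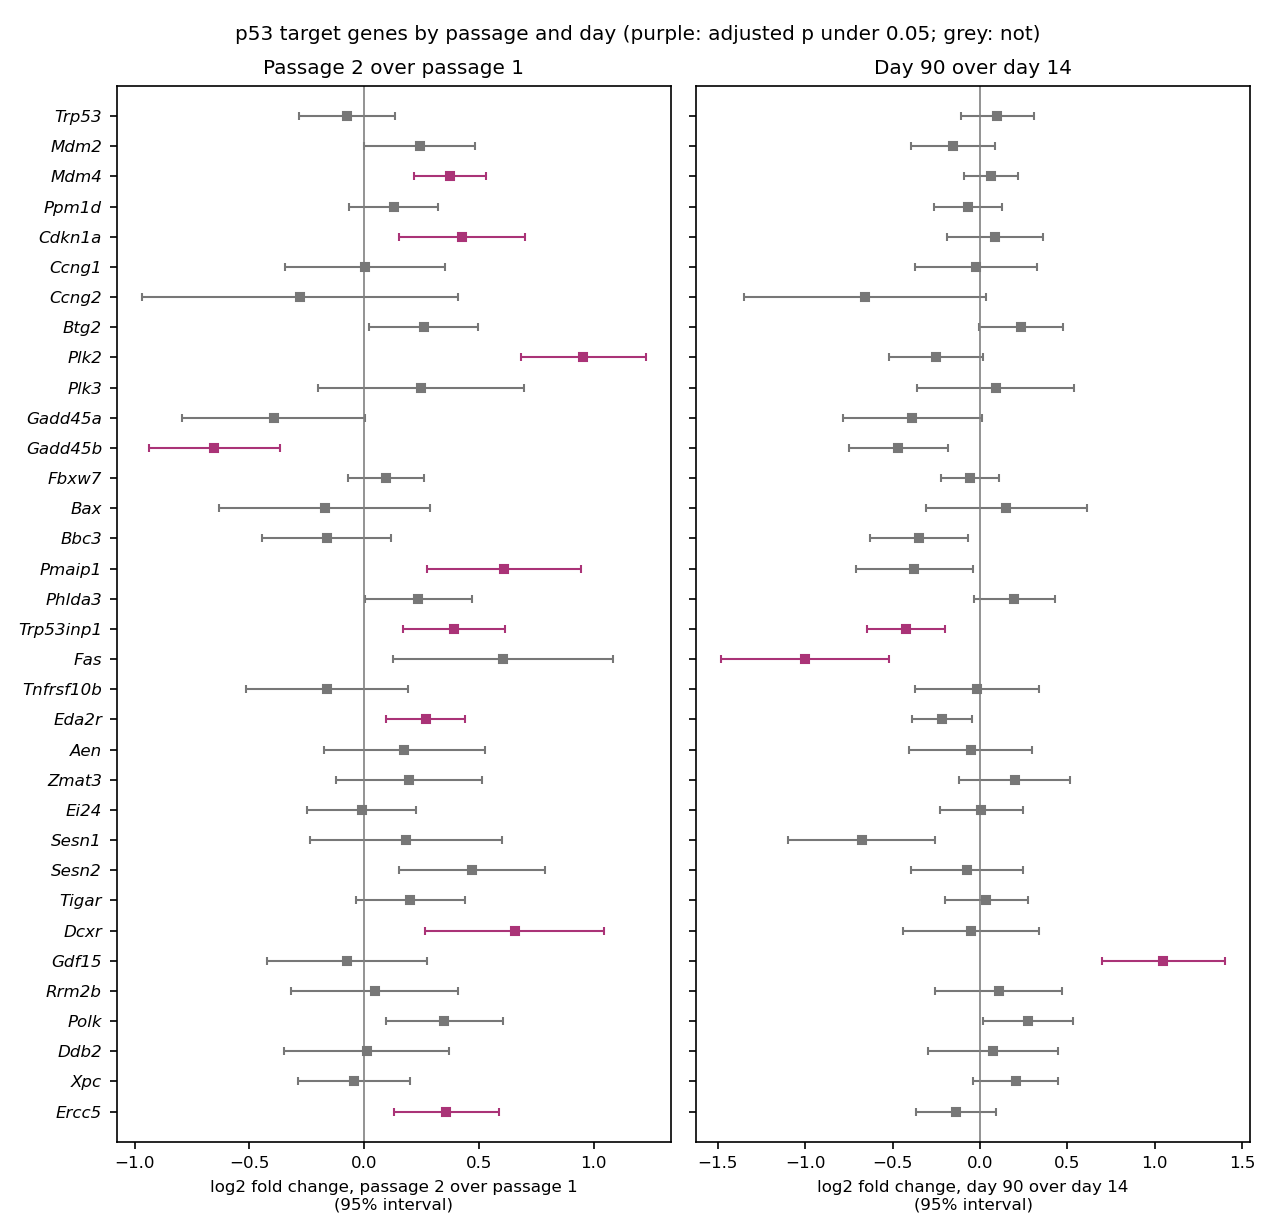
Log2 change with its 95% interval (horizontal axes) for the 34 tested members (vertical axis), from passage 1 to passage 2 on the left and from day 14 to day 90 on the right, in purple where the adjusted p was under 0.05 and in grey where not. Plk2 (0.96) and Gadd45b (-0.65) are the purple points farthest from 0 on each side on the left, and Gdf15 (1.05) and Fas (-1.0) those on the right.

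Other genes of the pathway were read from lists that, like the members, were chosen with earlier results of these data known. Among 26 tested further p53 targets, 4 rose and 1 fell in the mean over the strata, where 11.0% of all tested genes were called. Their median log2 fold change was 0.12, against 0.0033 over all tested genes. Pltp, a phospholipid transfer protein, fell by 0.90 ± 0.18 (SE; adjusted p = 0.00328), from sham means of 50.6, 67.2, 48.7 and 43.9 CPM to IR means of 19.8, 40.6, 26.4 and 26.8 CPM. Dyrk3, a protein kinase, rose by 0.66 ± 0.15 (SE; adjusted p = 0.00607) and Tob1, an antiproliferative relative of Btg2, by 0.50 ± 0.14 (SE; adjusted p = 0.0235). In passage 2 of day 90 the checkpoint protein Sfn fell by 1.07 ± 0.30 (SE; adjusted p = 0.0438). Of the 15 genes of the p53 family and its cofactors, Trp63 and Trp73 fell in the mean over the strata and none rose. These relatives of p53 fell by 0.98 ± 0.13 and 1.32 ± 0.26 (SE, adjusted p = 0.000114 and 0.00236), where 11.0% of all tested genes were called. Trp63 went from sham means of 85.7, 117, 87.9 and 121 CPM to IR means of 42.2, 84.8, 35.0 and 54.5 CPM, and is itself a marker of basal cells.

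Of 20 genes of DNA damage sensing, none was called by edgeR in IR against sham, in any stratum or in the mean. In the mean, 1 was higher and 3 lower at an unadjusted p under 0.05. Of all tested genes, 11.0% were called in that mean and 25.9% were under an unadjusted p of 0.05. Of 17 tested genes of senescence, 3 rose in the mean and none fell, against the same 11.0% of all tested genes. These were Igfbp7 (1.09 ± 0.25, adjusted p = 0.00759), Plaur (0.96 ± 0.23, adjusted p = 0.00944) and Cdkn2b (0.44 ± 0.11, adjusted p = 0.014). Of 18 tested genes of the BCL2 family and caspases, 3 rose in the mean and none fell, again against 11.0%. They were the survival genes Bcl2 (0.39 ± 0.11, adjusted p = 0.0218) and Bcl2l1 (0.43 ± 0.12, adjusted p = 0.0236) and the death gene Bid (0.33 ± 0.10, adjusted p = 0.0336). Bcl2 and Bid were also called at day 90, passage 2, where 4.92% of all tested genes were called. There Bcl2 rose from 13.7 ± 3.2 to 30.7 ± 2.4 CPM (SD, n = 3).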

How the data were processed

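Transcripts were measured in 24 libraries of mouse salivary gland organoids. The QuantSeq protocol named in the labels counts reads from transcript 3' ends. Raw counts of reads per gene, not normalized, were deposited by the authors under Ensembl identifiers. Per the submitters' processing notes, bcl2fastq and the build GRCm39 were used. The sources used here do not name the aligner, counter, annotation or strand setting. Each file held 47643 genes and 5 lines that name no gene, which were left out: reads on no gene were 11.5% to 26.5% of a library and ambiguous reads 0.259% to 0.451%. Symbols were matched for 47224 identifiers through an annotation of GRCm38, used for names only. Gm42418, a predicted gene over a ribosomal RNA repeat, took 11.8% to 29.0% of counts and mitochondrial ribosomal RNA 8.35% to 15.8%. No replicates were duplicates: the chi-square per degree of freedom between them was 2.07 to 26.7.

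Counts were tested with edgeR 4.0.16 in R 4.3.3 (quasi-likelihood test, two-sided, TMM factors, filterByExpr on the 8 groups, 1 mean per group over all 24 libraries), with Benjamini-Hochberg adjustment over the 10563 tested genes and a threshold of 0.05. The SE is the log2 fold change over the square root of F, and intervals are 95%. CPM per library use TMM factors, and the interferon score is a mean log2 CPM with a prior count of 2. There were 9 comparisons: IR against sham in 4 strata and in their mean, the difference of the IR effect between days and between passages, and the mean effects of passage and of day. Separate animals or cultures are not stated for replicates, so the p-values rest on a spread between libraries that may be technical.

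The members and lists were chosen with earlier results of these data known. Values in every group were given for Trp53, Mdm2, Cdkn1a, Ccng1, Phlda3, Bax, Gdf15, Eda2r and Zmat3, for called members, and for the 3 smallest p where fewer than 3 were called. Up to 3 called genes were named of each other list in the comparisons of IR. The scripts were tested on simulated counts. As alternatives, DESeq2 1.42.0, no filter, a minimum of 5 CPM in 3 libraries, RLE factors, a fit of the compared groups alone, a replicate block, ribosomal genes left out, Gm42418 share or interferon score as a covariate, each library left out, and, added after the data were seen, each passage alone were run.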

Additional observations from a re-analysis of the deposited data

How the results depend on the processing

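With no filter on low counts, the number of members called was 3, 2, 1 and 2 for IR against sham at day 14 passage 1, day 14 passage 2, day 90 passage 1 and day 90 passage 2 (460, 200, 465 and 1044 of all genes, against 36, 2, 5 and 520), 6 in the mean over the strata (1642 against 1162), 3 and 1 for the differences between days and passages (283 and 255 against 11 and 2) and 7 for day (970 against 508). DESeq2 called 1 at day 14, passage 1 (123 of all genes) and 5 for day (627). At day 90, passage 2, it was 0 with only the compared groups (85 of all genes), 0 with the Gm42418 share as a covariate (237) and 2 with the interferon score (585). The Gm42418 covariate left 1 for IR in the mean (532 of all genes) and 5 for passage (746), and the interferon score gave 5 for day (621). In the mean over the strata 0 were called in passage 1 alone (284 of all genes) and 0 in passage 2 alone (199), and 1 for day in passage 2 alone (129). These single-passage fits use fewer libraries, and otherwise the cause was not tested. Leaving out 1 library gave 0 to 1 at day 14 in each passage and at day 90, passage 2, 0 at day 90, passage 1 and for both differences, 2 to 4 for IR in the mean, 5 to 12 for passage and 3 to 5 for day. Of all genes, 0 to 146, 0 to 38, 0 to 25 and 137 to 1194 were then called in the 4 strata. It was 846 to 1774 in the mean, 2 to 85 and 0 to 36 for the differences, 878 to 1398 for passage and 319 to 664 for day. Whether libraries with the same replicate number share an animal or culture is not given, and the numbers in the titles of the IR libraries of day 90 differ from those in the names of their count tables. By the title numbers, which alone were used, same-numbered libraries had deviations correlated at over 0.1 in 30 of 84 pairs, and 12 of 24 libraries correlated best with their own number. With the replicate block the counts were 0, 0, 0 and 1 in the 4 strata, 3 in the mean, 0 and 0 for the differences, 11 for passage and 4 for day. Over all genes they were 29, 1, 4 and 559 in the strata, 1225 in the mean, 10 and 2 for the differences, 1298 for passage and 514 for day. Of 1622 values of single genes under alternatives, 82 lost a call and 18 gained one, 12 of these 18 with no filter on low counts. None of the 16 called results changed sign, while 55 values that were never called did. With 3 libraries a group at these depths, the median SE within a stratum was 0.27 to 0.28 on the log2 scale, which limits what single strata can show.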
